A study of Mus musculus with 118 samples.

Results

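Genes of the sine oculis homeobox family encode homeodomain transcription factors that direct the formation of the eye, forebrain, kidney, muscle and sensory placodes. The members described here were Six2, Six3, Six4, Six5 and Six6, taken by name, 5 of the 26180 mouse genes with a curated RefSeq transcript. For each of them, every curated transcription start site (TSS) was extended by 2500 bp to either side. These windows and the gene body, meaning the span of the curated transcripts, were compared with the peaks called for 3 Polycomb proteins in mouse embryonic stem cells (ESCs). RING1B is the catalytic E3 ligase subunit of Polycomb repressive complex 1 (PRC1), SUZ12 is a core subunit of PRC2, and PCGF2 is a subunit found in canonical PRC1 but not in most variant PRC1 complexes.

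Polycomb complexes occupy the CpG-rich promoters of developmental regulators in ESCs, where PRC1 ubiquitylates histone H2A and PRC2 methylates lysine 27 of histone H3. Canonical PRC1 binds the mark that PRC2 places through its CBX subunit, whereas variant PRC1 can reach CpG islands without it. Genes that specify organs are well known to lie in broad regions covered by both complexes in pluripotent cells, and the sine oculis genes belong to this class of regulator.

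The series holds 118 samples in 42 groups, of which 4 ChIP groups of 3 samples each, with their input samples as control, lie behind the peaks used here. RING1B and PCGF2 were profiled in untreated (0 hr) PRC1CPM ESCs, and SUZ12 in untreated PRC1CPM and untreated PRC1CKO ESCs. PRC1CPM cells carry a catalytically dead Ring1a (Ring1aI50A/D53K) together with a Ring1b allele that tamoxifen switches to the I53A/D56K form, and PRC1CKO cells lack Ring1a and carry a floxed Ring1b (Ring1bfl/fl). Both express ERT2-Cre from Rosa26 and are E14 clones, so that RING1B was wild type and present in every untreated sample although RING1A was mutant or absent. Each line is a single clone, and the values below therefore describe these clones before tamoxifen.

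The peaks were deposited as intervals only, with 18643 for RING1B, 7438 for SUZ12 and 3680 for PCGF2. They carry no height, probability or replicate, so neither a standard deviation nor a test of a difference could be had, and the sizes of differences are given as measured. The rules behind the lists also differed. RING1B and SUZ12 peaks came from merged replicates and had to be called in both lines, and RING1B peaks additionally had to lose signal after tamoxifen in PRC1CKO cells, whereas PCGF2 peaks had to be called in every replicate of PRC1CPM. The RING1B samples of PRC1CKO, untreated and tamoxifen-treated, thus also shaped the RING1B list. They are published data from outside this series and were not analysed here. The part of these rules in the differences between lists was not tested, and the lists do not show whether a protein was bound at a gene without a peak. The labelled cell type could not be checked against expression, which the peak lists do not hold. Of 5 stem cell regulators, Nanog and Zfp42 had no peak in any list, Pou5f1 had a RING1B peak only, and Klf4 and Esrrb had all 3.

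All 5 genes carried a RING1B peak and a SUZ12 peak at the promoter, and 4 of them carried a PCGF2 peak. Six4 was the member without one. The share of all genes with a promoter peak was 53.2% for RING1B, 24.8% for SUZ12 and 13.5% for PCGF2. Peaks of all 3 proteins were present at 4 of 5 members against 13.4% of genes, and RING1B with SUZ12 but without PCGF2 at 1 of 5 against 11.1%. Every member promoter had exactly 1 peak per list where it had any, and that peak covered the TSS in each case.

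The letters just upstream of the TSS show how different the starting sequences were. The 250 bases before the TSS of Six2, Six3 and Six5 are printed because they hold, in that order, the most CG dinucleotides of the members, the fewest at the gene with the widest peaks, and an intermediate number at the gene with the narrowest PCGF2 peak. They are from the RefSeq promoter table for GRCm38.p6 (mm10), which held all 5 members, and run 5′ to 3′ on the strand of the gene with each CG in capitals.
Six2 (chr17:85688255-85688504, minus strand): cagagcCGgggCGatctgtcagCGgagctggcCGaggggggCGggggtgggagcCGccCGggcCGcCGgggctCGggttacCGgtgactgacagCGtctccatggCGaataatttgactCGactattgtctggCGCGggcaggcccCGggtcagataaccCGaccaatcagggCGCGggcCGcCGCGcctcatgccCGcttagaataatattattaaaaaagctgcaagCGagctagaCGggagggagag
Six3 (chr17:85620584-85620833, plus strand): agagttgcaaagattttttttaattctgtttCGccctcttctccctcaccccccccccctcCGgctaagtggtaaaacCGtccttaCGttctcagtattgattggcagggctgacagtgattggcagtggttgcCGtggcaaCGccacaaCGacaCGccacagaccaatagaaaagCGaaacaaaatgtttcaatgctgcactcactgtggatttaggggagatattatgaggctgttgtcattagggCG
Six5 (chr7:19094294-19094543, plus strand): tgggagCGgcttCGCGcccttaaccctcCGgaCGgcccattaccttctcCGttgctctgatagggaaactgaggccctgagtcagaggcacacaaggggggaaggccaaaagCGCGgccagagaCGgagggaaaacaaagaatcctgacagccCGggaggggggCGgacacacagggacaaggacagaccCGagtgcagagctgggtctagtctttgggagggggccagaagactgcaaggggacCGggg
The Six2 stretch held 26 CG, Six3 held 10 and Six5 held 13. The same 250 bases held 13 CG at Six4 and 17 at Six6. CG was counted on one strand only, since it reads the same on both, and the median over 32851 promoters in the table was 6. As many CG as at Six2 or more were found in 9.59% of those promoters, as many as at Six3 or more in 37.8%. The number of CG directly before the start site therefore did not order the members as their peaks did.

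The members fell into a wide and a narrow class. Six3, Six2 and Six6 lay in peaks that ran over the promoter, the whole curated gene body and several kilobases on either side in all 3 lists. Six5 and Six4, which form a closely related pair within the family, had peaks of a few kilobases that ended inside the gene. RING1B promoter peaks of at least 10 kb, a limit chosen after the widths were seen, were present at 3 of 5 members and at 2.43% of all genes. In the RING1B list the order from wide to narrow was Six3, Six2, Six6, Six5, Six4. In the SUZ12 list Six4 and Six5 changed places, with 4355 bp and 4066 bp, and no spread between replicates was available to set this difference against.

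**Figure D1:**
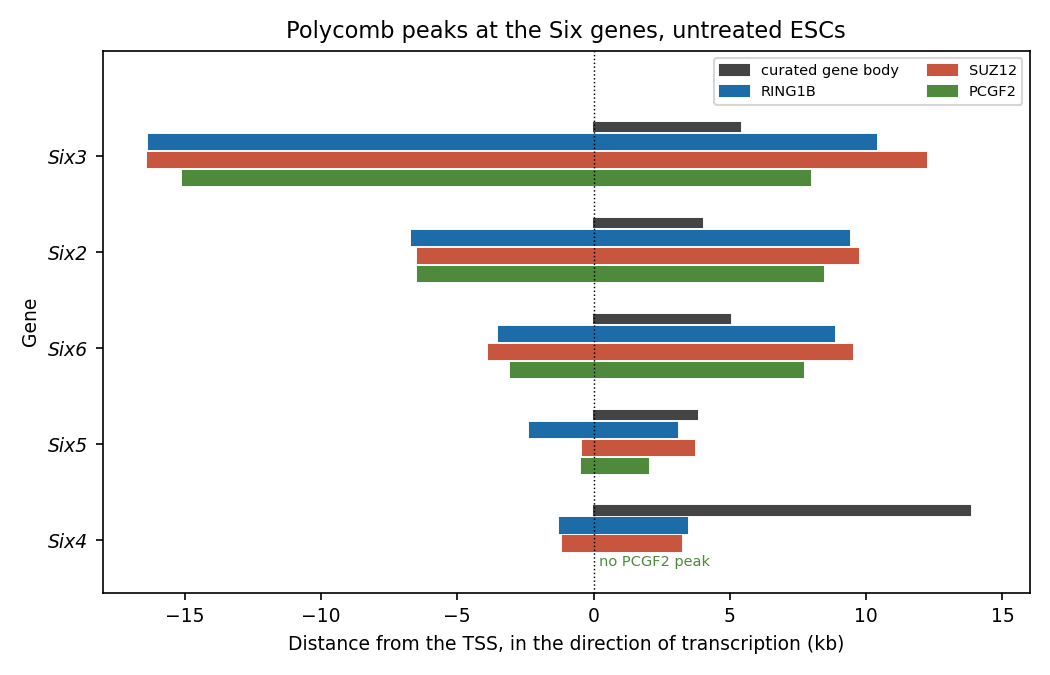
Extent of the RING1B, SUZ12 and PCGF2 peaks (coloured bars) and of the curated gene body (grey bar) at each sine oculis gene, as distance from the TSS in kb along the direction of transcription (x axis), with genes ordered by RING1B width (y axis). Peaks of Six3, Six2 and Six6 extend past both ends of the curated gene body, those of Six5 and Six4 stop inside it, and Six4 has no PCGF2 peak.

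Six3, which is required for the anterior forebrain and the eye field, had the widest peaks of the family in every list. The gene has 2 exons in 5358 bp on the plus strand of chromosome 17 (TSS at 85620834). Its RING1B peak spanned 26652 bp (chr17:85604533-85631184), its SUZ12 peak 28537 bp (chr17:85604509-85633045) and its PCGF2 peak 22995 bp (chr17:85605771-85628765). Most of this width lay upstream of the curated TSS, with RING1B reaching 16301 bp before it against 10350 bp after it. The annotated span of Six3 begins farther upstream, at 85613608, and the RING1B peak covered 12584 bp of that span. Both exons were covered completely in all 3 lists. The upstream arm ran over Six3os1, a long noncoding RNA gene on the opposite strand whose curated TSS, 2438 bp from that of Six3, lay in the same peaks. RING1B covered 13864 bp of the Six3os1 span, so that the peak cannot be ascribed to either gene alone. The upstream ends of RING1B and SUZ12 were 24 bp apart, while downstream SUZ12 went 1861 bp farther than RING1B and PCGF2 stopped 2419 bp short of it.

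Six2, which maintains nephron progenitors in the kidney, lies on the minus strand of the same chromosome with 2 exons in 3987 bp (TSS at 85688254). The RING1B peak measured 16023 bp (chr17:85678896-85694918), the SUZ12 peak 16133 bp (chr17:85678571-85694703) and the PCGF2 peak 14868 bp (chr17:85679832-85694699). The 3 lists nearly coincided upstream, with SUZ12 ending 215 bp and PCGF2 219 bp inside the RING1B edge. Six2 was thus the member at which the lists differed least, with a SUZ12 peak 110 bp wider than RING1B and a PCGF2 peak 0.928 times as wide. RING1B passed the 3′ end of the curated gene body by 5372 bp. The annotated span of Six2 runs farther downstream (chr17:85662736-85688254), and the RING1B peak covered only 9359 bp of that span. The upstream arm of the RING1B peak shared 6425 bp with CJ186046Rik, a long noncoding RNA gene on the plus strand for which no curated TSS is annotated in the peak.

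Six6, the close paralogue of Six3 with roles in retina and pituitary, lies on the plus strand of chromosome 12 with 2 exons in 5018 bp (TSS at 72939882). RING1B covered 12293 bp (chr12:72936403-72948695), SUZ12 13327 bp (chr12:72936036-72949362) and PCGF2 10701 bp (chr12:72936866-72947566). The balance about the TSS was the reverse of that at Six3, with RING1B reaching 3479 bp upstream and 8813 bp downstream. SUZ12 extended beyond RING1B at both ends, by 367 bp upstream and 667 bp downstream, and PCGF2 lay inside RING1B at both. No other annotated gene overlapped the RING1B peak at Six6, which made it the only wide member without a noncoding neighbour in its peak.

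Six5, which lies directly downstream of the myotonic dystrophy protein kinase gene Dmpk, had the peaks whose widths differed most between lists as a ratio, although the differences in bp were larger at Six3. It has 3 exons in 3802 bp on the plus strand of chromosome 7 (TSS at 19094544). RING1B spanned 5409 bp (chr7:19092205-19097613), SUZ12 4066 bp (chr7:19094161-19098226) and PCGF2 2428 bp (chr7:19094123-19096550). RING1B reached 2339 bp upstream of the TSS, whereas SUZ12 reached 383 bp and PCGF2 421 bp. At the other end SUZ12 went 613 bp farther than RING1B, and the RING1B and SUZ12 peaks shared 3453 bp, which was 63.8% of the RING1B peak and 84.9% of the SUZ12 peak. The upstream RING1B arm covered 1617 bp of the 3′ end of Dmpk, and the promoter of Dmpk, 10686 bp from the Six5 TSS, had no peak in any list. The downstream edge lay in exon 3 for RING1B and SUZ12 and in exon 2 for PCGF2, which covered 40.5% of that exon.

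Six4, the member with the longest curated gene body (13817 bp), lies on the minus strand of chromosome 12 and had the peaks that covered least of their gene. It has 2 curated transcripts whose start sites lie 180 bp apart, of which the more upstream one (73113425) was used as reference. The RING1B peak spanned 4665 bp (chr12:73110005-73114669) and the SUZ12 peak 4355 bp (chr12:73110208-73114562), and SUZ12 lay inside RING1B at both ends. RING1B covered 24.8% of the gene body and SUZ12 23.3%. Both covered the first of 3 exons completely, ended in intron 1 and left the other exons bare. The annotated span of Mnat1, a subunit gene of the CDK-activating kinase, overlapped 2485 bp of the RING1B peak on the opposite strand. That span begins at 73112185 on the plus strand, inside both Six4 peaks. The curated TSS of Mnat1 lay 10292 bp from that of Six4 and had no promoter peak in any list.

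Relative to the curated gene body, the RING1B peak was 4.97 times as long at Six3, 4.02 times at Six2 and 2.45 times at Six6. The ratio was 1.42 at Six5 and 0.338 at Six4. Genes with curated bodies of similar length could fall into different classes: Six5 with 3802 bp and Six2 with 3987 bp had RING1B peaks of 5409 bp and 16023 bp. The annotated span of Six2 is longer than its curated body, so this likeness of length holds for the curated bodies only. The PCGF2 peak lay inside the RING1B peak at all 4 genes that had it. It was 0.863 times as wide as RING1B at Six3 and 0.870 times at Six6, near the value for Six2, and 0.449 times at Six5.

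Against all genes with a promoter peak in the same list, the wide members stood in the upper tail in each list. The median RING1B promoter peak was 12293 bp over the 5 members and 1810 bp over 13922 genes. For SUZ12 the medians were 13327 bp over the 5 and 3232 bp over 6487 genes, and for PCGF2 12784.5 bp over 4 and 2912 bp over 3522 genes. The Six3 RING1B peak was wider than that of 98.9% of genes, Six2 than 97.6% and Six6 than 96.7%. In the PCGF2 list these shares were 96.5%, 92.7% and 89.8%. The narrow members moved far more between lists. Six5 was above 87.1% of genes in RING1B, 59.4% in SUZ12 and 39.0% in PCGF2, where its peak was below the median, and Six4 was above 84.0% in RING1B and 62.2% in SUZ12. A share in one list is set against that list's own genes, and the lists differ in which genes they hold.

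**Figure D2:**
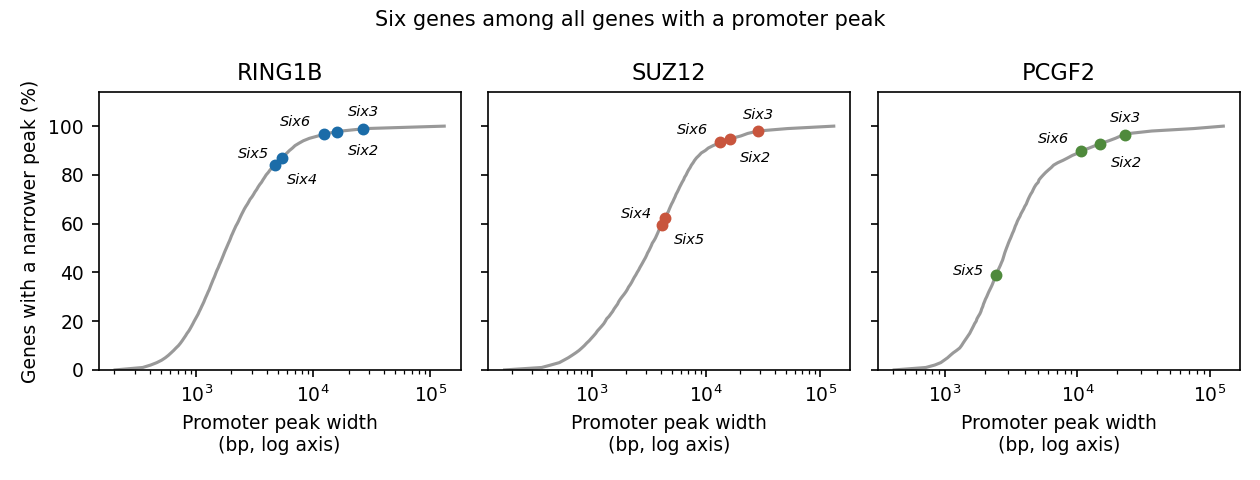
Share of genes with a narrower promoter peak (y axis, percent) against promoter peak width (x axis, bp, log axis) for all genes with a promoter peak in each list (grey line), with the members as points. Six3, Six2 and Six6 sit at 89.8% or above in each of the 3 panels, whereas Six5 falls from 87.1% for RING1B to 39.0% for PCGF2.

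Across genes, PCGF2 was more often present where the RING1B peak was wider, and Six4 and Six5 stood on different sides of that call at similar width. Of 6410 genes with both RING1B and SUZ12 at the promoter, 54.7% also had PCGF2. Among the 1229 genes whose RING1B promoter peak measured from 4 to below 6 kb, the range that holds Six4 and Six5, SUZ12 was present at 89.4% and PCGF2 at 74.2%. Among the 635 genes at 10 kb or more, the range that holds Six2, Six3 and Six6, PCGF2 was present at 92.3%. Six4 was thus among the smaller share of genes of its width that lacked a PCGF2 peak. These width ranges were chosen with the members' values known.

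The RING1B peaks were richer in CpG than their surroundings at every member. The observed over expected CpG ratio, which compares the number of CpGs with that predicted from the C and G content, was 0.503 in the RING1B peak of Six2, 0.441 at Six3, 0.504 at Six4, 0.507 at Six5 and 0.498 at Six6. In flanks of the same length on either side it ranged from 0.173 at Six2 to 0.207 at Six3. The median over all RING1B peaks was 0.518. Counted per length, the narrow peaks were denser, with 3.94 CpGs per 100 bp at Six4 and 4.99 at Six5 against 3.62 at Six2, 2.97 at Six3 and 2.80 at Six6. Within the promoter window of 5001 bp, Six5 had 272 CpGs and Six2 had 263, more than 98.6% and 98.3% of coding genes, and Six3 had 209. Six4 with 178 and Six6 with 174 were next to each other although one had a narrow and the other a wide peak, and the median coding gene had 100. Six5 therefore combined the highest promoter CpG count of the family with its narrowest SUZ12 and PCGF2 peaks.

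Along the surrounding sequence, the wide peaks held CpG clusters away from the start site and the narrow ones did not. In 80 bins of 500 bp about the TSS, bins were called CpG-rich where the ratio was at least 0.6 and GC content at least 50%. Of the 80 bins, 54 lay in the RING1B peak at Six3, 32 at Six2, 25 at Six6, 11 at Six5 and 9 at Six4. A narrow peak could not hold a distant cluster, so the contrast follows in part from peak width. Six3 had 11 such bins, of which 10 lay in its RING1B peak, and Six2 had 8, all in the peak. At Six3 these included bins starting 12000, 6000 and 3000 bp upstream of the TSS, with 33, 34 and 31 CpGs. At Six6, 4 bins were CpG-rich and all lay in the peak, and the richest, with 62 CpGs, began 5500 bp downstream of the TSS and so beyond the 3′ end of the gene. Six4 had 2 CpG-rich bins, both in the first kilobase of the gene and both in the peak. Six5 had 4, of which 3 lay about the TSS in all 3 lists, while the other, with 70 CpGs and starting 18500 bp upstream, had 0 bp under any peak of the 3 lists, the neighbouring peaks included. The CpG-rich bin of Six3 outside its own peak likewise had 0 bp under any peak.

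**Figure D3:**
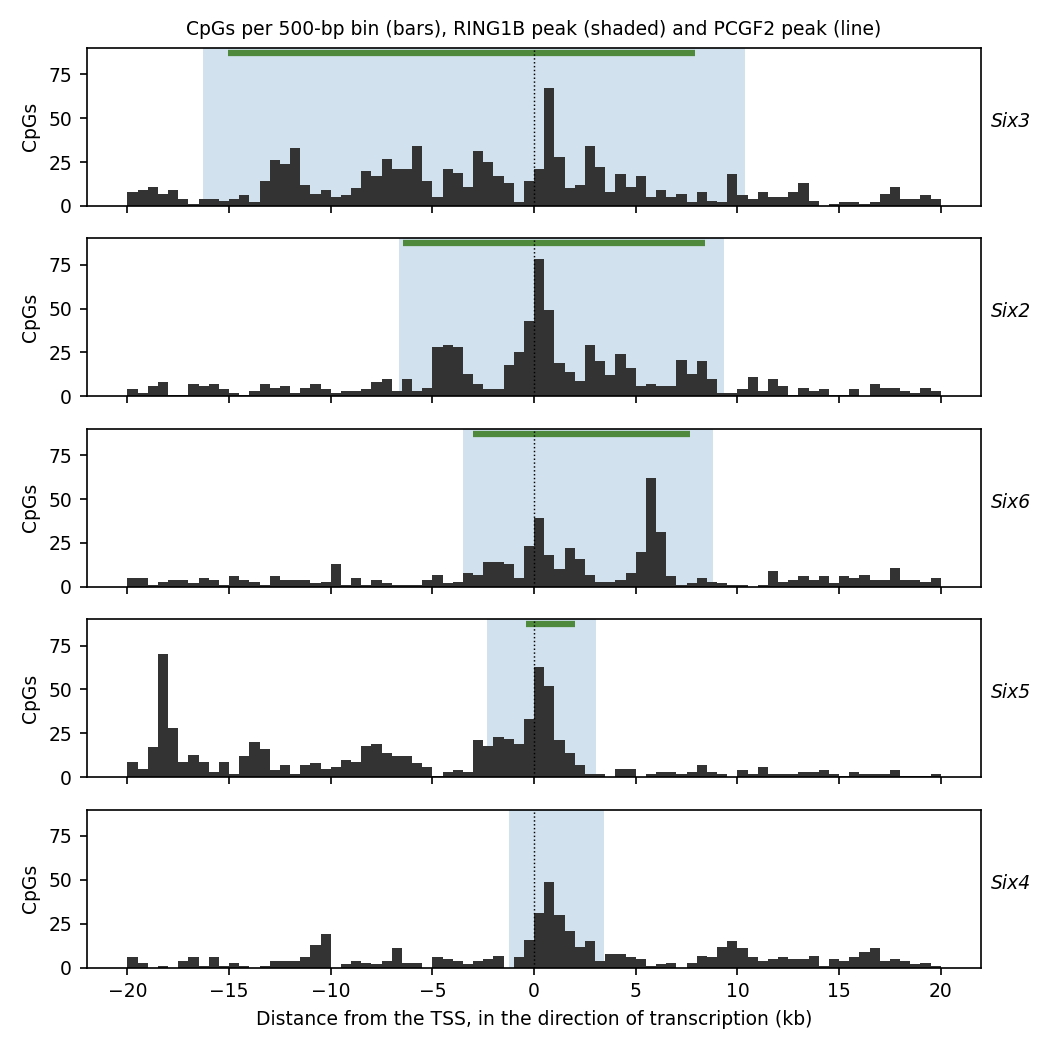
Number of CpGs per 500-bp bin (y axis, bars) within 20 kb of the TSS (x axis, kb in the direction of transcription) for each member, with the RING1B peak shaded and the PCGF2 peak as a green line. Six3, Six2 and Six6 have CpG clusters several kilobases from the TSS inside the shaded peak, Six4 and Six5 have one cluster at the start, and the bin of 70 CpGs upstream of Six5 lies outside its peak.

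The PCGF2 peak of Six5 lay on the CpG-richest section of its RING1B peak. It held 7.33 CpGs per 100 bp against 4.99 in the RING1B peak and 4.60 in the SUZ12 peak. At the wide members the densities differed less between lists, with 3.78 for PCGF2 and 3.62 for RING1B at Six2, 3.25 and 2.97 at Six3, and 3.07 and 2.80 at Six6. PCGF2 peaks were shorter than RING1B peaks at each of these genes, and their density was higher at each.

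Six3 and Six2 are transcribed toward each other with their TSSs 67.4 kb apart, and their peaks remained separate in every list. The interval between the peaks was 47.7 kb for RING1B, 45.5 kb for SUZ12 and 51.1 kb for PCGF2. It held 3 RING1B peaks, 3 SUZ12 peaks and 1 PCGF2 peak, none over a curated TSS. The one shared by all 3 lists measured 3840 bp for RING1B (chr17:85642915-85646754), 3902 bp for SUZ12 and 2308 bp for PCGF2. RING1B peaks of 1353 bp and 834 bp farther on shared a single SUZ12 peak of 3036 bp and had no PCGF2, and a SUZ12 peak of 846 bp had no RING1B peak. The peaks of 1353, 834 and 3036 bp lay within the annotated span of Six2, which begins at 85662736, and so were not intergenic. The CpG ratios of the RING1B peaks in the interval were 0.323, 0.342 and 0.306, below the 0.441 and 0.503 of the Six3 and Six2 peaks. The 3 RING1B peaks in the interval covered 6027 bp in all, less than the Six6 peak alone.

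**Figure D4:**
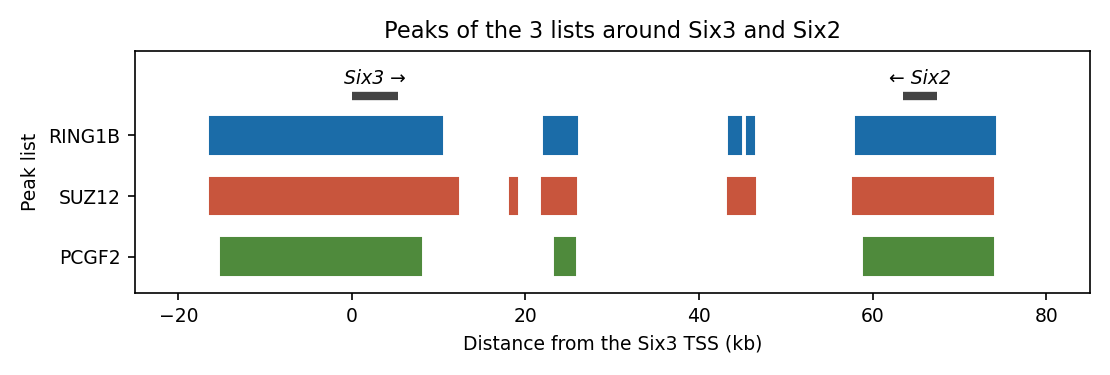
Peaks of RING1B, SUZ12 and PCGF2 (rows) around Six3 and Six2, as distance from the Six3 TSS in kb (x axis), with curated gene bodies in grey and arrows giving the direction of transcription. The peaks over the genes are separated by an interval that holds 3 RING1B, 3 SUZ12 and 1 PCGF2 peak.

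Within 100 kb of the TSS, Six2 had 6 RING1B peaks covering 49.0 kb and Six3 had 5 covering 48.7 kb, and these windows overlap. More bases lay under RING1B peaks there than at 98.9% and 98.8% of 21000 coding genes, for which the median was 3 peaks and 4.89 kb. Six5 had the most RING1B peaks of the members, 11 covering 31.4 kb, and 8 SUZ12 peaks covering 14.9 kb. Its 3 PCGF2 peaks in that window covered 3.99 kb, and its own promoter peak made up 2428 bp of this. Six6 had 6 RING1B peaks over 24.8 kb, 5 SUZ12 peaks over 23.7 kb and 2 PCGF2 peaks over 15.9 kb. The windows of Six6 and Six4, both on chromosome 12, also overlap, and bases were counted only inside each window. Six4 had 3 RING1B peaks over 27.9 kb and 2 SUZ12 peaks over 25.5 kb. The 1 PCGF2 peak in its window lay away from its promoter and partly in the Six6 window, so that it was counted for both genes. In the Six4 window it covered 20.4 kb, more than at 98.6% of coding genes. The narrow class of Six4 therefore held for its own promoter and not for its neighbourhood.

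Proteins of the sine oculis family act with PAX, EYA and DACH proteins in a network that controls organ formation, in which EYA proteins are coactivators and DACH proteins corepressors. Of 10 such partner genes, 10 had a RING1B peak at the promoter, and 8 had both SUZ12 and PCGF2. The PAX genes were the wide ones, with RING1B peaks of 33419 bp at Pax2, 36873 bp at Pax3, 36477 bp at Pax6 and 26049 bp at Pax7. Eya1, Eya2, Eya4 and Dach1 ranged from 3338 to 6532 bp, near Six4 and Six5. Eya3 with 836 bp and Dach2 with 550 bp had the 2 shortest RING1B peaks and neither SUZ12 nor PCGF2. The partners' median RING1B width was 6507.5 bp, and 4 of 10, all of them PAX genes, reached 10 kb.

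Other homeobox families were more uniform in width class. The Irx genes, regulators of neural and heart patterning, had all 3 peaks at 6 of 6 members, with RING1B widths from 8079 to 20968 bp and a median of 14330.5 bp. The Dlx genes, regulators of forebrain and craniofacial development, also had all 3 at 6 of 6, with a median of 30698 bp and a range from 10339 to 37823 bp, over 4 distinct peaks since neighbouring Dlx genes share them. RING1B peaks reached 10 kb at 5 of 6 Irx genes and 6 of 6 Dlx genes, and at 3 of 5 members of the sine oculis family. In neither family was there a member as narrow as Six4 or Six5, and the families were picked as examples, so these values describe the named genes only.

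**Figure D5:**
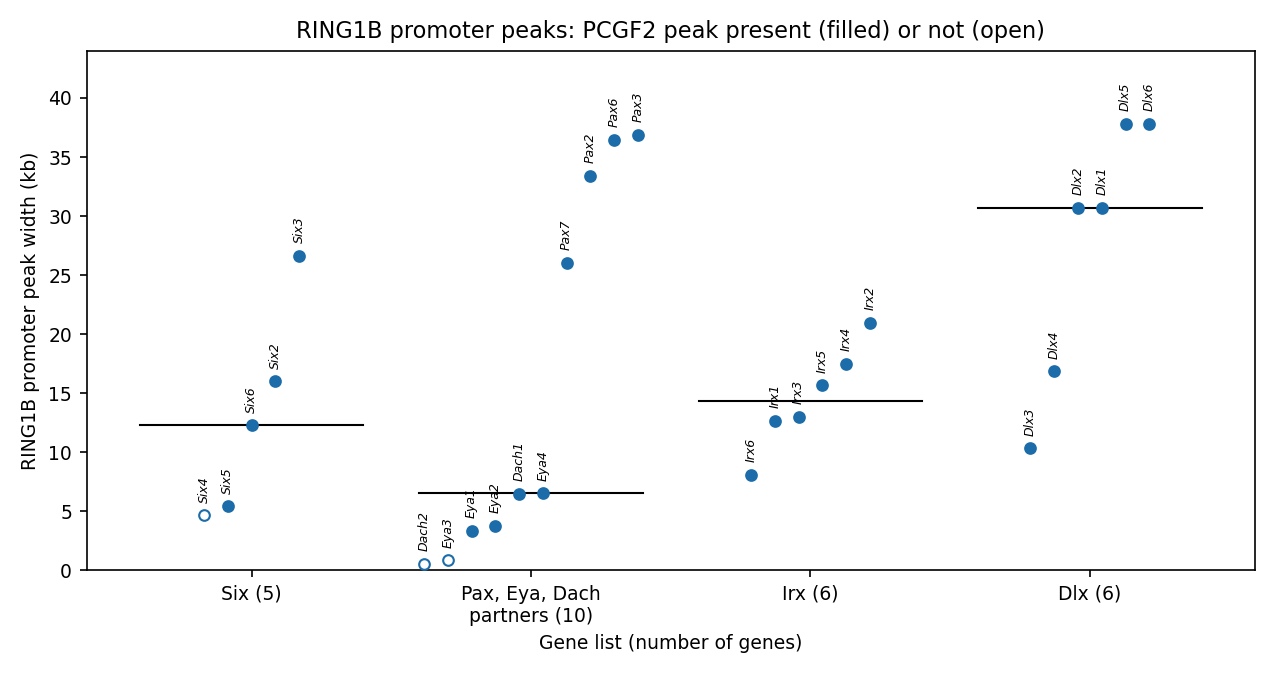
Width of the RING1B promoter peak in kb (y axis) for each gene of 4 lists (x axis), with filled points where a PCGF2 peak was also present, open points where it was not, and a line at each list's median. Six4, Eya3 and Dach2 are the open points, and Six4 and Six5 lie below every Irx and Dlx gene.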

How the data were processed

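Calibrated ChIP-seq with human HEK293T spike-in was processed by the authors with Bowtie2 to mm10 and hg19, and peaks were called with MACS2 in broad mode against input after duplicates and a custom blacklist were removed. The deposited BED files give 3 columns, chromosome, start and end, and so hold peak positions and no counts or signal. The depth of the samples is not given by the lists and the precision of an edge is therefore unknown. Starts were converted to 1-based positions. Overlap of at least 1 bp with a curated TSS plus or minus 2500 bp counted as a promoter peak, and the widest was taken where a gene had several. CpG values were read from GRCm38.p6. Genes named are the members, 5 stem cell regulators, the Pax, Eya and Dach partners, the Irx and Dlx families, the 2 genes on other chromosomes nearest to a member in log2 peak widths, and genes that overlap a member's peak. The members and lists were chosen with earlier results of these data known. Python 3.11.15, NumPy 2.4.6, pandas 2.3.3, pysam 0.24.0 and matplotlib 3.10.9 were used, and the overlap functions were tested on simulated data. No test was run, since the lists hold no replicates.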

Additional observations from a re-analysis of the deposited data

How the results depend on the processing

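Whether a member carried a peak and how wide it was did not change with the settings tried, but most of these had little room to change it. Each member peak covered the TSS and the narrowest measured 2428 bp. Other windows, start sites, overlaps or size limits could therefore not remove a peak, and could only have added one. Peak calling, which sets the widths, was not varied. For promoter half-widths of 1000 and 5000 bp, an overlap of at least 500 bp, removal of peaks under 1000 bp, other choices of transcript or TSS, the gene body in place of the promoter and merging of peaks less than 1000 bp apart, 8 alternatives in all, all 32 recomputed counts of members and all 24 median widths kept their value. Of 56 reaches about the TSS, 4 changed, all at Six4, where the other TSS put the upstream RING1B reach at 1424 bp. Of 30 peak counts near a TSS, 28 changed when the window was 50 or 200 kb, and Six4 had no PCGF2 peak within 50 kb and 2 within 200 kb. All 10 CpG ratios changed. Within 500 bp of the TSS, Six3 had the lowest at 0.515 and Six5 0.816, against 0.549 and 0.546 in the wider window. No paired analysis was possible because each list pools its samples into single intervals.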

Other observations

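The genes nearest to each member of the family in the widths of all 3 peaks were found by the Euclidean distance of log2 widths. A promoter peak in each list was present at 3508 genes, members included, and only those on other chromosomes than the member were eligible. Nearest to Six3 was Vax2, a ventral eye homeobox gene, with its antisense partner Vax2os in the same peaks, at a distance of 0.05 and with widths of 26106 bp for RING1B, 28037 bp for SUZ12 and 22391 bp for PCGF2. Nearest to Six2 were Cdkn2c, which encodes a cyclin-dependent kinase inhibitor, and the noncoding 9630013D21Rik, which share peaks of 16245, 15562 and 14792 bp for the same lists. Six6 lay nearest to Cilp2 at 0.03 and to Gad1, the gene of a GABA-synthesising enzyme, at 0.05. Six5 had less close neighbours, Ckb, a creatine kinase gene, at 0.12 and Ptprg, a receptor phosphatase gene, at 0.17. The PCGF2 peak of Ckb measured 2409 bp beside a RING1B peak of 5280 bp, so that the short PCGF2 peak within a longer RING1B peak seen at Six5 had a like case elsewhere. The measure rests on 3 values per gene and carries no information on function.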
